A study of Homo sapiens with 12 samples.

Results

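Collagens are extracellular proteins whose chains wind around one another into a helix, and this set of 56 genes holds the human collagen chains and the enzymes that hydroxylate and cross-link them. The genes were taken by symbol from the tables of both cell lines: every protein-coding gene whose name begins as a collagen chain gene, together with the LOX, PLOD and P4HA families. The rule used no measured value. It took 56 of 58302 genes, or of 19817 protein-coding genes: 44 collagen genes, 5 lysyl oxidases, 3 lysyl hydroxylases, 3 prolyl 4-hydroxylase alpha subunits and COL4A3BP. COL4A3BP matches by its older symbol alone; it encodes the ceramide transfer protein and is no collagen. The libraries came from H1703 and H1299, established human lung carcinoma lines of the non-small-cell kind, each kept for 24 h with SAHA or with its DMSO vehicle at 0.1%. SAHA (vorinostat) is a hydroxamate that inhibits histone deacetylases. The 4 groups of 3 libraries were H1703 with SAHA, H1703 with DMSO, H1299 with SAHA and H1299 with DMSO. The protocol lists SAHA at 0, 2.5, 10 and 40 µM without saying which dose was sequenced, so no value here belongs to a stated dose. No label states that replicates were separate cultures, and p-values therefore measure the spread between these libraries, which may be technical.

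Collagen chains are made in the endoplasmic reticulum, where prolyl 4-hydroxylases (alpha subunits P4HA1 to P4HA3) hydroxylate prolines and so stabilise the helix, and lysyl hydroxylases (PLOD1 to PLOD3) hydroxylate lysines. After secretion, lysyl oxidases (LOX and LOXL1 to LOXL4) oxidise lysines and hydroxylysines, the first step of cross-linking. Fibrillar collagens build tension-bearing fibrils, type IV collagen forms the sheet of basement membranes, type VI forms beaded microfilaments, and FACIT collagens sit on the surface of fibrils. In lung tissue much collagen is made by fibroblasts, and carcinoma cells themselves make basement membrane chains and cross-linking enzymes.

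Total counts ran from 14.4M to 19.4M per library. Genes with 10 or more counts numbered 17209 to 17573 with SAHA, against 15986 to 16339 with DMSO, in H1703, and 17425 to 17590 with SAHA, against 15895 to 16229 with DMSO, in H1299. Mitochondrially encoded genes took 8.77 to 10.9% of counts with SAHA, against 5.44 to 6.27% with DMSO, in H1703, and 4 to 4.23% with SAHA, against 1.96 to 2.22% with DMSO, in H1299; the part of this difference in the results below was not tested. The labels call both lines epithelial. The summed level of 8 epithelial markers was 3290 to 3840 CPM (counts scaled to a common library size) in H1703 with SAHA, 4260 to 4720 CPM in H1703 with DMSO, 1350 to 1570 CPM in H1299 with SAHA and 590 to 617 CPM in H1299 with DMSO, where CDH1 and ELF3 had no counts. In bulk RNA, fewer cells of a type and less RNA per cell cannot be told apart. Each line was deposited as its own table, so the line and the table cannot be told apart in any comparison between them.

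With SAHA, members of the set rose and fell in both lines. In H1703, 44 of the 56 genes had enough counts to be tested, of which 23 rose, 7 fell and 14 were not called (edgeR's quasi-likelihood test, adjusted p below 0.05 over all genes tested); of all 17273 genes tested, 67.4% were called either way, 34.7% upward and 32.6% downward, so the share of members called either way was close to that of all genes. In H1299, 39 were tested, of which 24 rose, 5 fell and 10 were not called; of all 17277 genes tested, 63.8% were called either way, 33.3% upward and 30.4% downward. The median log2 fold change was 0.51 over the members tested in H1703, against 0.02 over all genes, and 0.81 in H1299, against 0.02. A gene that is low in one group can pass the count filter only through its high group, so these counts and medians describe the genes that passed and not all 56. Changes of 2-fold or more were called upward for 15 and downward for 6 genes in H1703, where 34.4% of all genes made such a change either way, and upward for 18 and downward for 2 genes in H1299, where the share was 30.4%.

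Of the 36 genes tested in both lines, 11 rose in both: COL14A1, COL4A3, COL4A4, COL4A6, COL5A3, COL6A2, COL6A3, COL8A1, LOXL2, LOXL3 and P4HA2. COL27A1 was the 1 gene that fell in both. Another 5 fell in H1703 and rose in H1299 (COL16A1, COL4A1, COL5A2, LOXL4 and P4HA3), and LOX and PLOD3 rose in H1703 and fell in H1299. Some of these calls were lost under other settings: of 13 alternatives, LOX in H1703 lost its call under 10, the replicate block among them (edgeR adjusted p = 0.0898), LOXL3 in H1703 under 6, PLOD3 in H1703 under 4 and COL5A2 in H1299 under 2. The difference between the lines' SAHA effects, tested as an interaction in 1 fit over the 12 libraries, was called for each of these 7 genes. Over all members tested for that difference, 47 in number, the effect was higher in H1703 for 7 and lower for 17; of all 19105 genes tested, 34.9% were called either way, 13.7% higher and 21.2% lower. Neither line had enough counts to test COL10A1, COL1A2, COL22A1, COL23A1, COL24A1, COL6A5, COL6A6, COL8A2 and COL9A3, and the highest of them in any library was COL8A2 at 1.59 CPM in H1703 with SAHA. Under DMSO, 29 of 47 members tested were higher in H1703 than in H1299 and 10 were lower, against 34.3% and 32.2% of all 19105 genes and 66.5% either way; differences of 2-fold or more numbered 24 higher and 8 lower, with 37.4% of all genes past that size; the median log2 difference was 1.62 for these members and 0.00 for all genes. This comparison and the interaction use the same DMSO libraries as the SAHA comparisons.

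**Figure D1:**
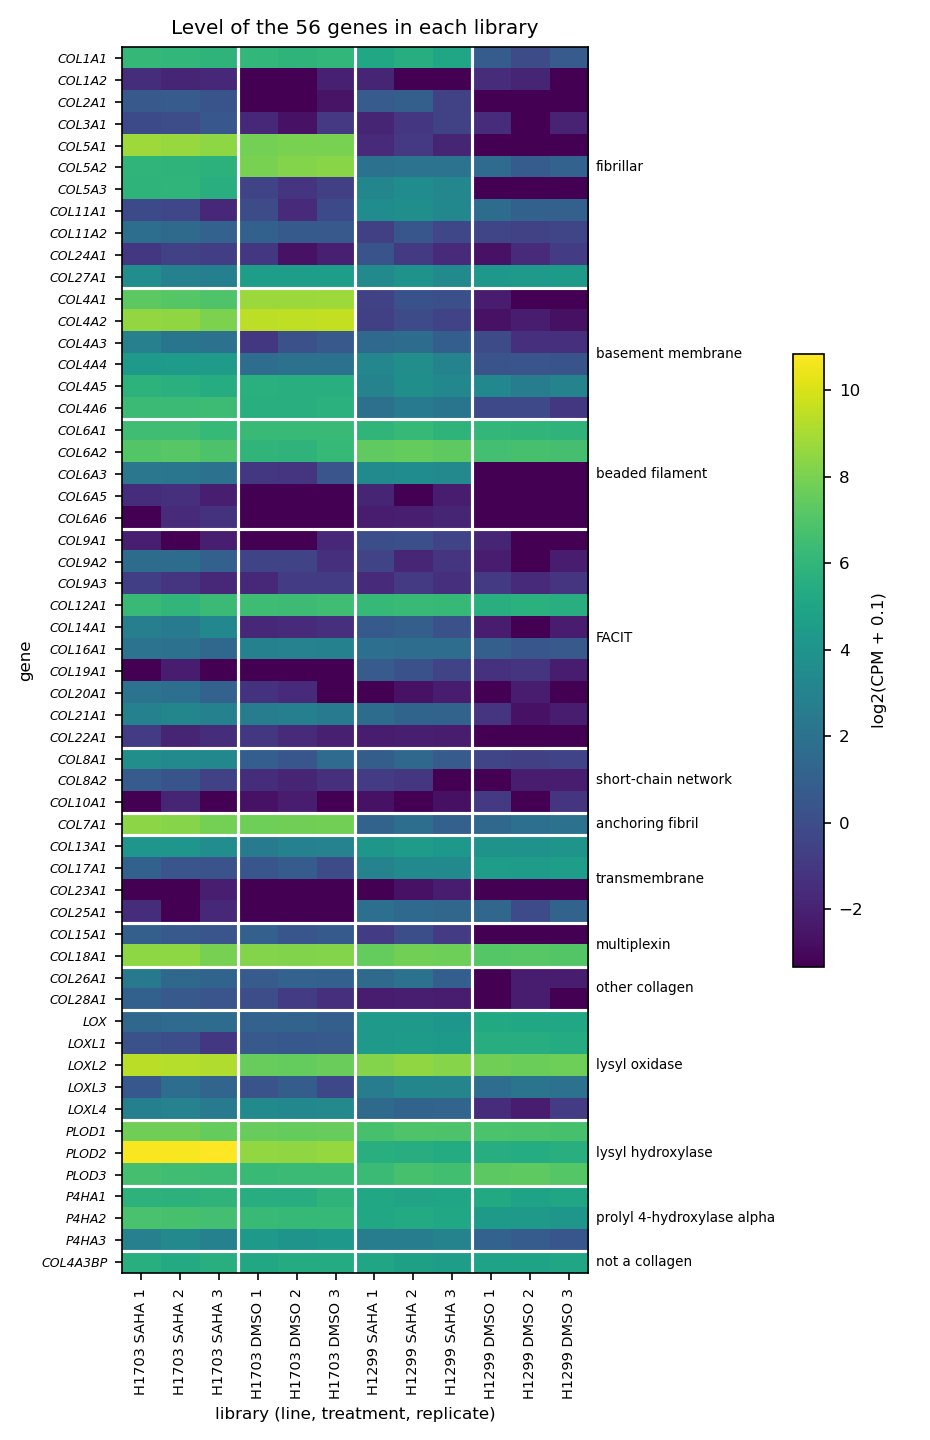
Heat map of log2(CPM + 0.1) for the 56 genes (rows, grouped by role) in the 12 libraries (columns, grouped by line and treatment). Type IV chains COL4A1 and COL4A2, COL5A1, COL5A2 and COL7A1 are bright in the H1703 columns and dark in those of H1299, and PLOD2 is brightest in the 3 H1703 libraries with SAHA, at 1658 to 1838 CPM.

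Levels per transcript length, as the deposited FPKM (fragment counts scaled by transcript length and library size), show which classes make up the collagen mRNA. The 44 collagen genes together reached 176 ± 24.2 FPKM in H1703 with SAHA (mean ± SD, n = 3), against 237 ± 11.6 FPKM with DMSO. In H1299 the sum was 74.9 ± 7.07 FPKM with SAHA, against 48.1 ± 0.94 FPKM with DMSO. The summed level was thus lower with SAHA in H1703 and higher with SAHA in H1299; no test was made on these sums, and 3 libraries against 3 cannot give an exact permutation p below 0.1. In H1703 the type IV chains took 31.6 ± 0.27% of collagen FPKM with SAHA, against 51.7 ± 0.60% with DMSO, while fibrillar chains took 23.5 ± 0.62%, against 20.9 ± 0.87%. In H1299 the type VI chains were the largest class, with 44.1 ± 1.61% with SAHA, against 46.9 ± 0.37% with DMSO. Fibrillar chains took 9.73 ± 0.75% there with SAHA, against 3.68 ± 0.33% with DMSO, and type IV chains 3.84 ± 0.53%, against 1.98 ± 0.38%. The member with the highest FPKM was PLOD2 in H1703 with SAHA (125), COL4A2 in H1703 with DMSO (69.5), and LOXL2 in H1299, with 37.0 FPKM with SAHA and 23.6 with DMSO.

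**Figure D2:**
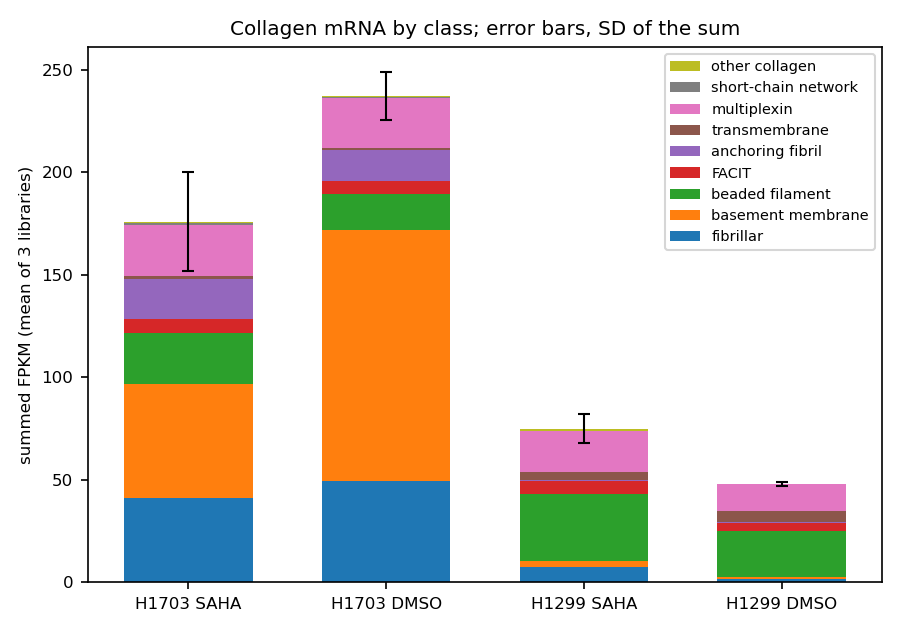
Summed FPKM (mean of 3 libraries, linear axis from 0) of the collagen classes in each group, stacked; error bars are the SD of the sum over all 44 collagen genes. The basement membrane segment is 55.6 FPKM in H1703 with SAHA and 122 FPKM in H1703 with DMSO, and under 3 FPKM in both H1299 groups.

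**Figure D3:**
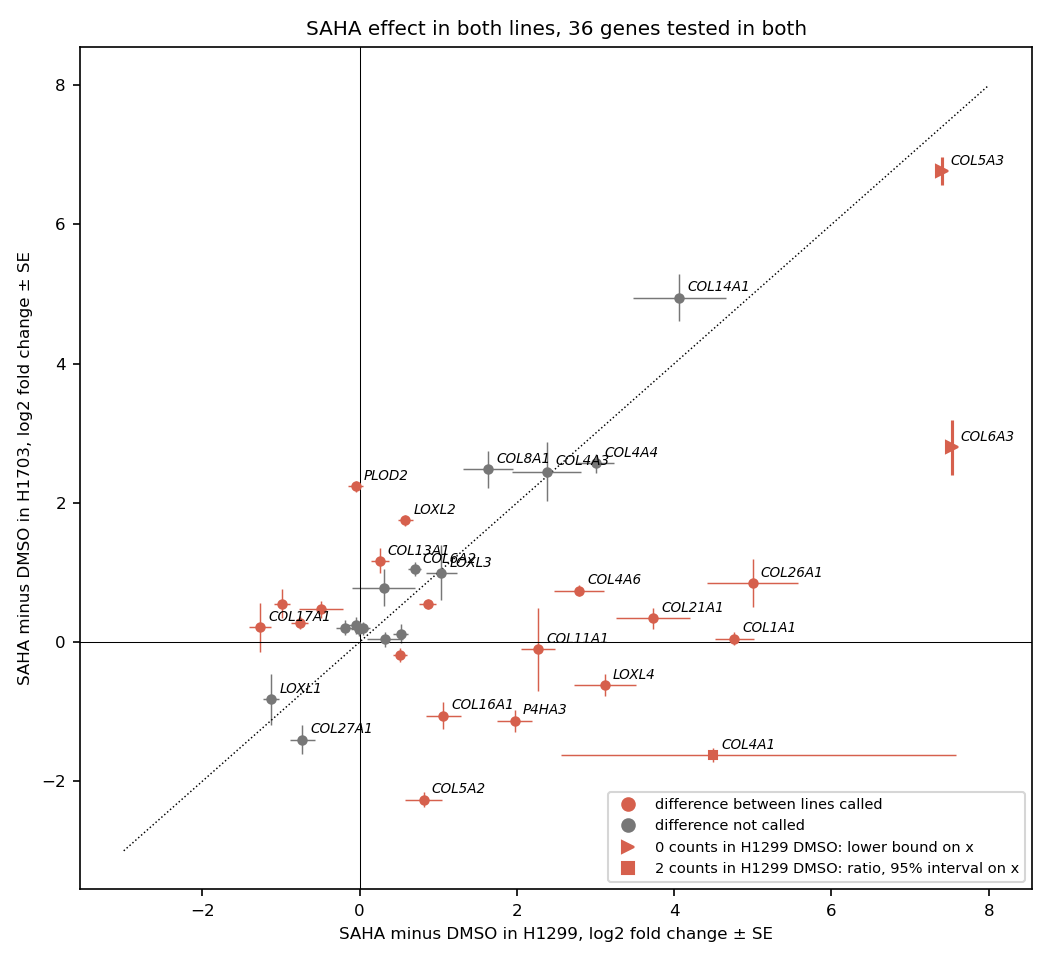
SAHA effect in H1299 (x axis) against H1703 (y axis) as log2 fold change ± SE for the 36 genes tested in both lines; the dotted line marks equal effects, red points differ between lines in the interaction test, triangles are lower bounds and the square is a ratio with its 95% counting interval. COL5A3 and COL14A1 lie far up in both lines, COL1A1 only along x, PLOD2 only along y, and COL4A1 and COL5A2 lie right of and below the centre.

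Among the 11 fibrillar collagen genes, SAHA raised COL5A3 in both lines and COL1A1 in H1299. COL5A3 encodes the alpha 3 chain of type V collagen, a minor partner of type I fibrils, and lies on chromosome 19 (9959561 to 10010471, GRCh38). It had 59.5, 60.4 and 46.6 CPM with SAHA, against 0.642, 0.352 and 0.548 CPM with DMSO, in H1703. H1299 libraries held 149, 188 and 160 counts with SAHA, against 0, 0 and 0 counts with DMSO. It was close to silent in all 6 DMSO libraries and present in all 6 with SAHA. The log2 fold change in H1703 was 6.77 ± 0.21 (edgeR adjusted p = 1.24e-08). In H1299 the level was at least 170-fold higher with SAHA, set against a floor of 3 counts over the group.

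COL1A1 encodes the alpha 1 chain of type I collagen, the main collagen of connective tissue (chromosome 17, 50183289 to 50201632). In H1703 it had 68.1, 67.7 and 58.4 CPM with SAHA, against 65.8, 58.3 and 66.7 CPM with DMSO. The H1299 values were 35.8, 45.6 and 32.7 CPM with SAHA, against 1.63, 0.830 and 1.58 CPM with DMSO. The H1703 groups overlapped and the H1299 groups were far apart. The log2 fold change was 0.05 ± 0.09 in H1703 (edgeR adjusted p = 0.667) and 4.76 ± 0.24 in H1299 (edgeR adjusted p = 8.68e-07), and the difference of -4.79 between lines was called. Under DMSO it was higher in H1703 by 5.55 ± 0.20 on the log2 scale. Its partner COL1A2, the alpha 2 chain with which it normally forms the type I heterotrimer, had at most 4 counts in any of the 12 libraries and was not tested. COL3A1, the type III chain, was also near the floor: it had 0.793, 0.933 and 1.31 CPM with SAHA, against 0.193, 0.0587 and 0.411 CPM with DMSO, in H1703, and rose by 2.23 ± 0.55 on the log2 scale there (edgeR adjusted p = 0.00544), or by 2.98 without DMSO replicate 3. H1299 cells had 0.179, 0.378 and 0.582 CPM with SAHA, against 0.242, 0 and 0.169 CPM with DMSO, too few to test.

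The remaining type V chains belonged almost wholly to H1703 and moved in opposite directions there. COL5A1, the alpha 1 chain found in most type V molecules, had 443, 408 and 350 CPM with SAHA, against 239, 252 and 258 CPM with DMSO, in H1703 and rose by 0.70 ± 0.09 on the log2 scale (edgeR adjusted p = 0.000116). COL5A2, the alpha 2 chain, had 61.4, 59.2 and 55.9 CPM with SAHA, against 252, 292 and 318 CPM with DMSO, and fell with a log2 fold change of -2.26 ± 0.10 (edgeR adjusted p = 1.03e-07). The groups did not overlap for either gene. The FPKM ratio of COL5A1 to COL5A2 was 4.25 ± 0.30 in H1703 with SAHA, against 0.55 ± 0.04 with DMSO (SD, n = 3 each). In H1299, COL5A1 had 4, 7 and 3 counts with SAHA, against 0 counts in all 3 DMSO libraries, at least 4.78-fold higher and too few to test; set against that line under DMSO, H1703 had 11782 counts over its group, at least 4253-fold higher. COL5A2 had 3.99, 4.15 and 4.13 CPM with SAHA, against 3.02, 1.66 and 2.09 CPM with DMSO, in H1299 and rose by 0.81 ± 0.24; this call was lost without DMSO replicate 2 or 3 (largest edgeR adjusted p over all alternatives 0.0521). Its level under DMSO was higher in H1703 by 6.99 ± 0.17 on the log2 scale.

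COL11A1, a type XI chain known from cartilage and from tumour stroma, had 0.793, 0.700 and 0.197 CPM with SAHA, against 0.835, 0.235 and 0.822 CPM with DMSO, in H1703. In H1299 there were 11.6, 13.4 and 9.83 CPM with SAHA, against 3.08, 2.02 and 1.92 CPM with DMSO. It rose in H1299 by 2.27 ± 0.22 (edgeR adjusted p = 2.19e-05) and was not called in H1703, and it was the fibrillar gene that stood lower in H1703 under DMSO, at -1.91 ± 0.42. COL27A1, a fibrillar chain of cartilage, fell in both lines: it had 12.2, 7.35 and 6.75 CPM with SAHA, against 23.6, 23.6 and 23.5 CPM with DMSO, in H1703, and 10.96, 15.1 and 10.5 CPM with SAHA, against 18.5, 19.3 and 20.8 CPM with DMSO, in H1299. No SAHA library reached the lowest DMSO library of its line. The log2 fold changes were -1.40 ± 0.21 in H1703 and -0.73 ± 0.16 in H1299 (edgeR adjusted p = 0.000361 and 0.00295), and their difference was not called (edgeR adjusted p = 0.0528). Under 4 of 18 alternatives this difference was called (smallest edgeR adjusted p = 0.0023). COL2A1, the main cartilage collagen, had 67 counts with SAHA against 1 with DMSO in H1703, a ratio of 66.6 (95% counting interval 11.6 to 2668), and 65 against 0 in H1299, at least 22.2-fold higher. COL11A2 rose by 0.78 ± 0.27 in H1703, a call lost under 5 of 13 alternatives, and was not called in H1299; COL24A1 was too low to test.

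The 6 type IV collagen genes lie in head-to-head pairs, each pair sharing the stretch of DNA between its starts. RefSeq (GRCh38.p14) places the starts of COL4A1 and COL4A2 127 bases apart on chromosome 13, and those of COL4A4 and COL4A3 419 bases apart on chromosome 2. On chromosome X, the first of 2 starts listed for COL4A6 lies 380 bases from that of COL4A5. The windows below, from 250 bases before to 50 after a start, are shown because the members of a pair share this DNA and the data bear on whether they moved together. Capitals mark 4 motifs on either strand, overlapping matches included: the GC box, spelled GGGCGG, the box named CCAAT after its letters, the TATA box as TATAAA, and the core of hypoxia response elements as ACGTG. They are COL4A2 on the plus strand at chr13:110307034-110307333, COL4A4 on the minus strand at chr2:227164156-227164455, COL4A3 on the plus strand at chr2:227164374-227164673, COL4A6 on the minus strand at chrX:108439409-108439708 and COL4A5 on the plus strand at chrX:108439588-108439887.
COL4A2: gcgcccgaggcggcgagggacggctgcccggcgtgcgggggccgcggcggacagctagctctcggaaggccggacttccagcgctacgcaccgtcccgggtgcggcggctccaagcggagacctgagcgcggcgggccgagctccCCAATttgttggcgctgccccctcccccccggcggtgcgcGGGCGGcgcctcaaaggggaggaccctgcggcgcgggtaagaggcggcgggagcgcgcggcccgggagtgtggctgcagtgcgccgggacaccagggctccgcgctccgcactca
COL4A4: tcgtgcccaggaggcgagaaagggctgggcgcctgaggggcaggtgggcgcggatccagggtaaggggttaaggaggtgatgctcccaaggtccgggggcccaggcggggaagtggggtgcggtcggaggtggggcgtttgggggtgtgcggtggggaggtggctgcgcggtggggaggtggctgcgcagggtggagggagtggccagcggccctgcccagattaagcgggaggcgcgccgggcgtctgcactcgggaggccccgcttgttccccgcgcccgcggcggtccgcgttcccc
COL4A3: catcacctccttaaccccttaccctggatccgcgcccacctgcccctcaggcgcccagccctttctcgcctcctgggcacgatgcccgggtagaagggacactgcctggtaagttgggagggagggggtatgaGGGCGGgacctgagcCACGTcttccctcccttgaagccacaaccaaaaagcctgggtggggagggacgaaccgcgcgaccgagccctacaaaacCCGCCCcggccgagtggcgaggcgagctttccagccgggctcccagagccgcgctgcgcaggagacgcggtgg
COL4A6: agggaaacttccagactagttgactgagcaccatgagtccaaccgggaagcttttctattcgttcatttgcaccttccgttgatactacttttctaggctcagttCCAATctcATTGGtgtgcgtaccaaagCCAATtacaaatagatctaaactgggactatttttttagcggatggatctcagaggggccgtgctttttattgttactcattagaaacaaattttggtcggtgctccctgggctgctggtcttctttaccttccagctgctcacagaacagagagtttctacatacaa
COL4A5: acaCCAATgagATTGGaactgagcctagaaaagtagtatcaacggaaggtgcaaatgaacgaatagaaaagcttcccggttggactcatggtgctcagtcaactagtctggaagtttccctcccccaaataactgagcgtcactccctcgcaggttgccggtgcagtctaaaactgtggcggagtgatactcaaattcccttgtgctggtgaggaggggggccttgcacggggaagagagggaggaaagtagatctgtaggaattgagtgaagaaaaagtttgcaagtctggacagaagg

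The COL4A1 window (chr13:110307108-110307407, minus strand) covers 226 of the same bases as that of COL4A2 and is not printed. The window of the other COL4A6 start (chrX:108438373-108438672, minus strand) is not printed either. It holds 1 GC box and no CCAAT, and the counts below are those of the printed windows. GC boxes number 1 in the COL4A2 window and 2 in that of COL4A3, and CCAAT occurs 1 time in COL4A2, 3 times in COL4A6 and 2 times in COL4A5. The COL4A4 window holds none of the 4 motifs and no window of the 5 holds TATAAA. Over the 35116 promoter windows of the RefSeq table, 45.0% hold a GC box, 34.6% CCAAT, 11.5% TATAAA and 21.4% ACGTG; of the 41 members with a window, 23, 13, 6 and 8 do. Median GC content was 66.7% over these 41 windows and 58.7% over all windows.

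Transcripts of the first pair fell in H1703, the line in which they were abundant. COL4A1 and COL4A2 encode the chains of the widespread form of type IV collagen. COL4A1 had 156, 137 and 121 CPM with SAHA, against 427, 426 and 440 CPM with DMSO, in H1703. COL4A2 had 373, 359 and 270 CPM with SAHA, against 697, 729 and 744 CPM with DMSO. All SAHA libraries lay below all DMSO libraries for both genes. The log2 fold changes were -1.62 ± 0.10 for COL4A1 and -1.09 ± 0.12 for COL4A2 (edgeR adjusted p = 5.79e-07 and 3.23e-05). The FPKM ratio of COL4A1 to COL4A2 was 0.45 ± 0.04 with SAHA, against 0.65 ± 0.02 with DMSO (SD, n = 3 each), with no overlap between the groups. In H1299 the pair was nearly silent: COL4A1 had 10, 17 and 17 counts with SAHA, against 2, 0 and 0 counts with DMSO, a ratio of 22.6 with a 95% counting interval of 5.88 to 192, and COL4A2 had 9, 14 and 11 counts with SAHA, against 1, 2 and 1 counts with DMSO. Under DMSO, COL4A2 was higher in H1703 (edgeR adjusted p = 2.70e-14), with 10857, 12425 and 10860 counts, against 1, 2 and 1 counts in H1299. The fitted log2 difference, 13.04 ± 0.23, rests on those few H1299 counts and gives no precise size. COL4A1 had 20337 counts over the H1703 group with DMSO, against 2 over the H1299 group. The deposited positions of these genes overlap near their starts.

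The second pair rose in both lines. COL4A3 and COL4A4 form, with COL4A5, the type IV network of the glomerulus and of alveolar basement membranes. COL4A4 had 20.04, 22.9 and 21.6 CPM with SAHA, against 3.28, 3.87 and 3.90 CPM with DMSO, in H1703. In H1299 it had 9.23, 12.7 and 7.91 CPM with SAHA, against 1.15, 1.25 and 1.19 CPM with DMSO. Every SAHA library stood above every DMSO library of both lines. Its log2 fold change was 2.57 ± 0.14 in H1703 and 3.004 ± 0.23 in H1299 (edgeR adjusted p = 3.01e-07 and 6.02e-06). COL4A3 was lower, at 3.87 to 7.21 CPM with SAHA, against 0.385 to 1.44 CPM with DMSO, in H1703, and at 1.75 to 3.15 CPM with SAHA, against 0.282 to 0.846 CPM with DMSO, in H1299. It rose by 2.45 ± 0.42 in H1703 and by 2.38 ± 0.44 in H1299 (3.04 without DMSO replicate 1), with no call on the difference between lines for either gene. A transcript annotated antisense to COL4A3 had 32.3% as many counts; if counting did not use strand, its reads cannot be told apart from those of COL4A3.

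The third pair moved unequally. COL4A6 encodes the alpha 6 chain, which joins COL4A5 in the basement membrane under several epithelia. COL4A6 had 80.3, 79.05 and 84.1 CPM with SAHA, against 48.6, 47.9 and 51.98 CPM with DMSO, in H1703. H1299 libraries held 3.69, 5.92 and 4.42 CPM with SAHA, against 0.785, 0.771 and 0.395 CPM with DMSO. It rose by 0.74 ± 0.08 in H1703 and by 2.79 ± 0.32 in H1299 (edgeR adjusted p = 2.74e-05 and 5.77e-05), and the difference of -2.13 ± 0.27 was called. COL4A5 had 56.3, 50.8 and 42.8 CPM with SAHA, against 51.5, 48.4 and 48.4 CPM with DMSO, in H1703. The H1299 values were 8.10, 13.3 and 9.60 CPM with SAHA, against 9.78, 6.17 and 7.96 CPM with DMSO. Its groups overlapped in both lines and it was called in neither, with log2 fold changes of 0.04 ± 0.11 in H1703 and 0.33 ± 0.23 in H1299. The FPKM ratio of COL4A6 to COL4A5 was 1.56 ± 0.27 with SAHA, against 0.95 ± 0.06 with DMSO, in H1703, and 0.43 ± 0.01, against 0.08 ± 0.04, in H1299 (SD, n = 3 each). The groups did not overlap in either line, and the smallest exact permutation p that 3 against 3 allows is 0.1. Under DMSO, 5 of the 6 type IV genes were higher in H1703 than in H1299, against 34.3% of all genes tested, COL4A6 by 6.24 ± 0.21 and COL4A5 by 2.63 ± 0.19; COL4A3 was not called.

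**Figure D4:**
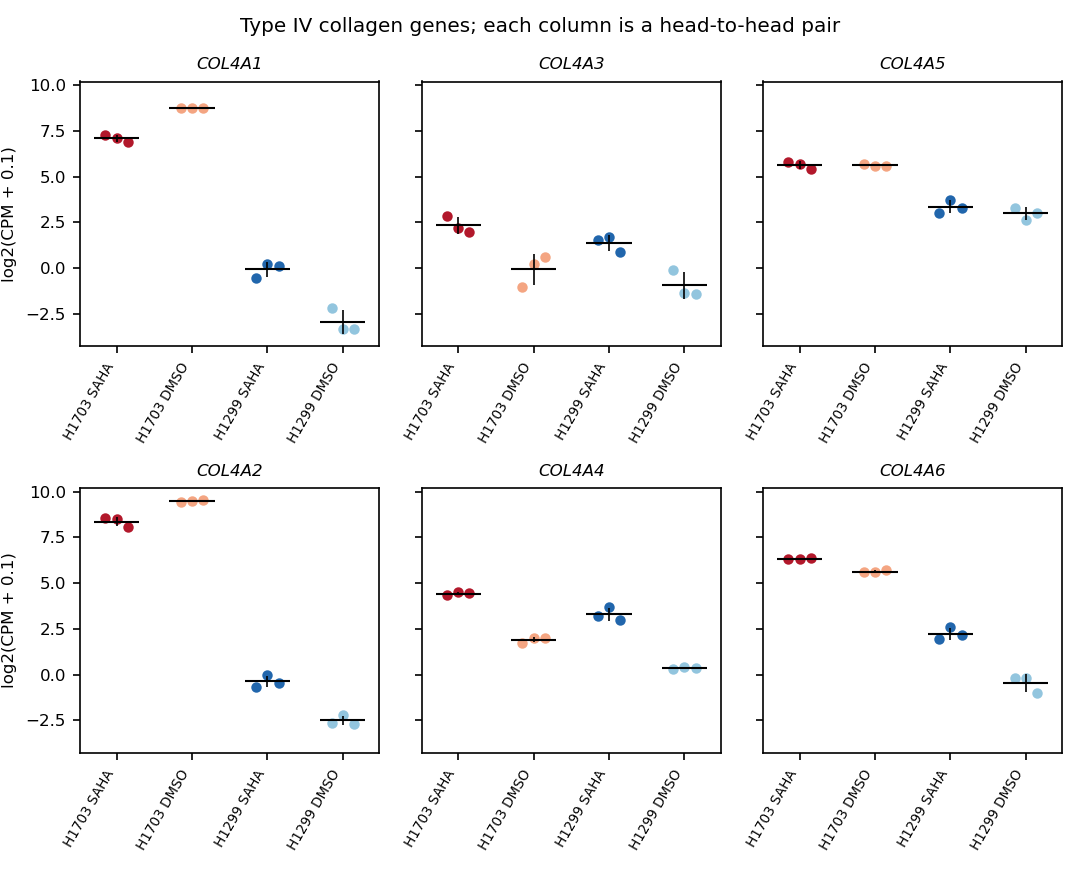
The 6 type IV collagen genes as log2(CPM + 0.1) in each library (points), with the group mean (horizontal bar) and SD (vertical bar); each column of panels is 1 head-to-head pair. COL4A1 and COL4A2 sit lower with SAHA than with DMSO in H1703, COL4A3 and COL4A4 sit higher with SAHA in both lines, and COL4A6 sits higher with SAHA while COL4A5 overlaps.

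The type VI collagen genes rose in part. COL6A3, on chromosome 2 (237324003 to 237414375), encodes the long alpha 3 chain that completes the type VI heterotrimer with COL6A1 and COL6A2. It had 72, 79 and 60 counts with SAHA, against 6, 6 and 18 counts with DMSO, in H1703. H1299 cells had 179, 188 and 173 counts with SAHA, against 0, 0 and 0 counts with DMSO. It was not detected in the H1299 DMSO libraries, and was at least 184-fold higher with SAHA. In H1703 it rose by 2.80 ± 0.40 on the log2 scale (edgeR adjusted p = 0.000167), or by 3.58 without DMSO replicate 3, the library with 18 counts. COL6A2 had 134, 143 and 118 CPM with SAHA, against 61.9, 59.9 and 71.8 CPM with DMSO, in H1703. In H1299 there were 170, 180 and 160 CPM with SAHA, against 99.3, 106 and 99.7 CPM with DMSO. It rose by 1.05 ± 0.10 in H1703 and 0.70 ± 0.08 in H1299 (edgeR adjusted p = 1.43e-05 and 6.17e-05). COL6A1 had 90.3, 89.5 and 72.7 CPM with SAHA, against 74.5, 76.5 and 75.3 CPM with DMSO, in H1703. In H1299 it had 61.3, 71.2 and 58.4 CPM with SAHA, against 66.9, 60.4 and 58.3 CPM with DMSO. Its groups overlapped in both lines, and it was called in neither. The FPKM ratio of COL6A2 to COL6A1 was 1.43 ± 0.06 with SAHA, against 0.78 ± 0.08 with DMSO, in H1703, and 2.45 ± 0.12, against 1.51 ± 0.13, in H1299 (SD, n = 3 each), without overlap in either line. COL6A5 and COL6A6 had at most 5 counts in a library.

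Of the FACIT genes, 6 were tested in H1299 and all 6 rose, and 6 were tested in H1703, of which 3 rose and 1 fell; of all genes tested, 33.3% rose in H1299, and in H1703 34.7% rose and 32.6% fell. Some of these genes passed the count filter through their SAHA libraries only: over the 3 DMSO libraries of H1299, COL9A1 had 3 counts, COL14A1 had 4, COL21A1 had 9 and COL19A1 had 13. COL14A1, a FACIT of dense connective tissue, had 6.61, 5.72 and 9.64 CPM with SAHA, against 0.193, 0.235 and 0.274 CPM with DMSO, in H1703, where it rose by 4.95 ± 0.34 (edgeR adjusted p = 1.27e-06). H1299 libraries held 1.49, 1.89 and 1.05 CPM with SAHA, against 0.121, 0 and 0.113 CPM with DMSO, with a rise of 4.07 ± 0.59. COL12A1, the FACIT with the most FPKM in all 4 groups, had 78.8, 63.5 and 81.7 CPM with SAHA, against 85.6, 83.5 and 90.5 CPM with DMSO, in H1703 and was not called. The H1299 values were 71.1, 77.5 and 71.6 CPM with SAHA, against 48.6, 52.5 and 48.05 CPM with DMSO, and rose by 0.52 ± 0.09 (edgeR adjusted p = 0.000631). COL16A1 fell in H1703 (-1.06 ± 0.19) and rose in H1299 (1.06 ± 0.22). COL21A1 rose in H1299 (3.73 ± 0.47, or 4.67 without DMSO replicate 1, which held 6 of the 9 DMSO counts) and was not called in H1703 (0.34 ± 0.15). The low genes COL9A2 and COL20A1 rose in H1703, by 2.37 ± 0.37 and 4.07 ± 0.56, and COL19A1 rose in H1299, by 2.04 ± 0.52. COL9A1 had 43 counts with SAHA against 3 with DMSO in H1299, a ratio of 14.7 (95% counting interval 4.70 to 74.1). COL9A3 and COL22A1 stayed below 0.6 CPM.

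Among the anchoring, transmembrane and other collagens, COL7A1, COL13A1 and COL28A1 rose in H1703, COL18A1 and COL26A1 rose in H1299, COL8A1 rose in both lines and COL17A1 fell in H1299. COL7A1 forms the fibrils that anchor the basement membrane of skin. It had 336, 310 and 235 CPM with SAHA, against 207, 215 and 226 CPM with DMSO, in H1703 and 1.92 to 3.34 CPM with SAHA, against 2.54 to 4.01 CPM with DMSO, in H1299. It rose in H1703 by 0.47 ± 0.12 (edgeR adjusted p = 0.00882), was not called in H1299, and under DMSO stood 5.999 ± 0.21 higher in H1703. COL17A1, a transmembrane collagen of hemidesmosomes, had 2.05, 1.23 and 1.11 CPM with SAHA, against 1.28, 1.64 and 0.890 CPM with DMSO, in H1703. In H1299 it had 7.92, 10.8 and 10.8 CPM with SAHA, against 23.4, 22.01 and 23.4 CPM with DMSO. It fell in H1299, with a log2 fold change of -1.27 ± 0.14 (edgeR adjusted p = 5.79e-05), and the difference of 1.40 ± 0.34 between lines was called. COL13A1, another transmembrane collagen, rose in H1703 by 1.17 ± 0.18 and was not called in H1299 (0.25 ± 0.12). COL25A1, a transmembrane collagen of neurons, had 0 counts in H1703 with DMSO and 93 in H1299 with DMSO, at least 28.6-fold lower in H1703; COL23A1 had at most 2 counts in a library. COL18A1, the multiplexin that yields endostatin, had 347, 351 and 242 CPM with SAHA, against 294, 286 and 298 CPM with DMSO, in H1703 and was not called. H1299 cells had 183, 227 and 209 CPM with SAHA, against 140, 145 and 134 CPM with DMSO, and rose by 0.52 ± 0.09 (edgeR adjusted p = 0.00105). COL15A1 was not called in H1703, and in H1299 it had 31 counts with SAHA against 0 with DMSO, at least 10.6-fold higher. COL8A1, a short-chain collagen of vessel walls and cornea, rose in both lines, by 2.48 ± 0.27 in H1703 and 1.63 ± 0.32 in H1299. COL26A1 rose in H1299 (4.996 ± 0.58), with 48, 60 and 31 counts with SAHA, against 0, 2 and 2 counts with DMSO. It passed the count filter there through its SAHA libraries, and the fitted size rests on few DMSO counts. COL28A1 rose in H1703 (1.54 ± 0.43). COL8A2 and COL10A1 were not tested in either line.

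Among the 7 members whose SAHA effect was called higher in H1703 than in H1299, PLOD2 had the largest difference. It encodes the lysyl hydroxylase that acts on the telopeptides of fibrillar collagen, and is known as a target of hypoxia-inducible factor. Its promoter window is shown for that reason, as RefSeq gives it on the minus strand at chr3:146161135-146161434:
PLOD2: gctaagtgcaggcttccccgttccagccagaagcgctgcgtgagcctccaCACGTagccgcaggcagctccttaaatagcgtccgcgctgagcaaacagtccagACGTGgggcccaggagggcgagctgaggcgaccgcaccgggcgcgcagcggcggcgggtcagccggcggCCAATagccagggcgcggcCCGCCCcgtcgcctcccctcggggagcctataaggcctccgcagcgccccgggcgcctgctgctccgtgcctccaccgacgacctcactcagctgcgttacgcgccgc

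It holds 2 ACGTG motifs, 1 GC box and 1 CCAAT. In H1703 PLOD2 had 1697, 1658 and 1838 CPM with SAHA, against 371, 366 and 384 CPM with DMSO. In H1299 there were 48.9, 45.8 and 42.6 CPM with SAHA, against 44.9, 43.7 and 49.3 CPM with DMSO. Every SAHA library of H1703 was above 4 times every DMSO library of that line, and the H1299 groups overlapped. The log2 fold change was 2.24 ± 0.07 in H1703 (edgeR adjusted p = 1.82e-08) and -0.05 ± 0.10 in H1299 (edgeR adjusted p = 0.661), and the difference of 2.21 ± 0.11 was called (edgeR adjusted p = 8.44e-09). Under DMSO it was already 3.02 ± 0.08 higher in H1703. PLOD1, which hydroxylates lysines within the helix, had 223, 220 and 182 CPM with SAHA, against 184, 182 and 188 CPM with DMSO, in H1703 and 106, 123 and 120 CPM with SAHA, against 113, 112 and 104 CPM with DMSO, in H1299, with overlapping groups and no call in either line. PLOD3, which also adds the sugars to hydroxylysine, had 102, 90.9 and 84.6 CPM with SAHA, against 73.2, 80.6 and 79.2 CPM with DMSO, in H1703. In H1299 it had 80, 104 and 93.4 CPM with SAHA, against 157, 160 and 139 CPM with DMSO. It fell in H1299, at -0.76 ± 0.11 (edgeR adjusted p = 0.000245), and rose in H1703 by 0.28 ± 0.09 (edgeR adjusted p = 0.0234), a call lost under 4 of 13 alternatives (edgeR adjusted p up to 0.135). The summed FPKM of the 3 lysyl hydroxylases was 158 ± 4.79 with SAHA, against 59.4 ± 2.08 with DMSO, in H1703, and 32.0 ± 2.24, against 37.6 ± 1.40, in H1299 (SD, n = 3 each).

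Of the prolyl 4-hydroxylase subunits, P4HA2 rose in both lines, and P4HA3 moved in opposite directions. P4HA1, the subunit with the most FPKM in all 4 groups, had 57.3, 55.9 and 60.1 CPM with SAHA, against 44.8, 44.6 and 59.9 CPM with DMSO, in H1703. H1299 libraries held 34.1, 30.7 and 33.7 CPM with SAHA, against 38.1, 29.1 and 31.6 CPM with DMSO. Its groups overlapped in both lines and it was not called. P4HA2 had 109, 106 and 99.2 CPM with SAHA, against 73.5, 72.95 and 72.2 CPM with DMSO, in H1703. The H1299 values were 35.4, 40.2 and 35.8 CPM with SAHA, against 21.1, 20.1 and 18.01 CPM with DMSO. The log2 fold change was 0.55 ± 0.07 in H1703 and 0.87 ± 0.11 in H1299 (edgeR adjusted p = 0.000119 and 0.000114), without overlap in either line. P4HA3 had 7.21, 10.03 and 7.28 CPM with SAHA, against 19.5, 16.3 and 18.9 CPM with DMSO, in H1703. H1299 cells had 6.32, 6.11 and 7.85 CPM with SAHA, against 2.05, 1.66 and 1.30 CPM with DMSO. It fell in H1703 (-1.13 ± 0.16, edgeR adjusted p = 0.000164) and rose in H1299 (1.97 ± 0.22, edgeR adjusted p = 5.34e-05), leaving SAHA levels of 7.21 to 10.0 CPM in H1703 and 6.11 to 7.85 CPM in H1299. Under DMSO all 3 subunits were higher in H1703, P4HA3 by 3.44 ± 0.20 on the log2 scale.

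LOXL2 was the lysyl oxidase with the most FPKM in every group, and it rose in both lines. This secreted oxidase also occurs in the nucleus and is known for its part in carcinoma invasion. It had 668, 622 and 569 CPM with SAHA, against 186, 182 and 196 CPM with DMSO, in H1703. In H1299 there were 295, 361 and 315 CPM with SAHA, against 221, 203 and 207 CPM with DMSO. All SAHA libraries lay above the DMSO libraries of their line, and those of H1703 lay above all others. The log2 fold change was 1.75 ± 0.08 in H1703 and 0.58 ± 0.10 in H1299 (edgeR adjusted p = 1.36e-07 and 0.000578), with a called difference of 1.10 ± 0.13; the difference under DMSO, -0.17 ± 0.09, was not called. LOX, the founding member, had 2.71, 2.98 and 3.08 CPM with SAHA, against 2.06, 2.17 and 1.85 CPM with DMSO, in H1703. In H1299 it had 19.8, 20.3 and 17.6 CPM with SAHA, against 38.2, 36.3 and 36.3 CPM with DMSO. It fell in H1299, at -0.99 ± 0.10 (edgeR adjusted p = 3.42e-05). In H1703 the log2 fold change was 0.55 ± 0.21 (edgeR adjusted p = 0.0397); this call was lost under 10 of 13 alternatives, with a replicate block among them (edgeR adjusted p = 0.0898). LOXL1, which acts on elastic fibres, had 1.06, 0.933 and 0.394 CPM with SAHA, against 1.48, 1.41 and 1.44 CPM with DMSO, in H1703. H1299 libraries held 19.3, 21.6 and 20.99 CPM with SAHA, against 44.5, 45.1 and 41.6 CPM with DMSO. It fell in H1299 (-1.13 ± 0.10) and was not called in H1703. Under DMSO both LOX and LOXL1 were lower in H1703, at -4.18 ± 0.13 and -4.92 ± 0.19 on the log2 scale. LOXL4 fell in H1703 (-0.62 ± 0.16) and rose in H1299 (3.12 ± 0.39). LOXL3 rose in H1299 (1.04 ± 0.20) and in H1703 (0.99 ± 0.39), where its groups overlapped and the call was lost under 6 of 13 alternatives. LOX, LOXL3, PLOD3 and P4HA3 each overlap another gene with more counts than their own (SRFBP1, HTRA2, ZNHIT1 and PPME1), and the labels contradict one another on whether the libraries kept strand, so their values are uncertain. LOXL1 overlaps a transcript annotated antisense to it, LOXL1-AS1, with 41.3% as many counts, so its values are uncertain for the same reason.

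**Figure D5:**
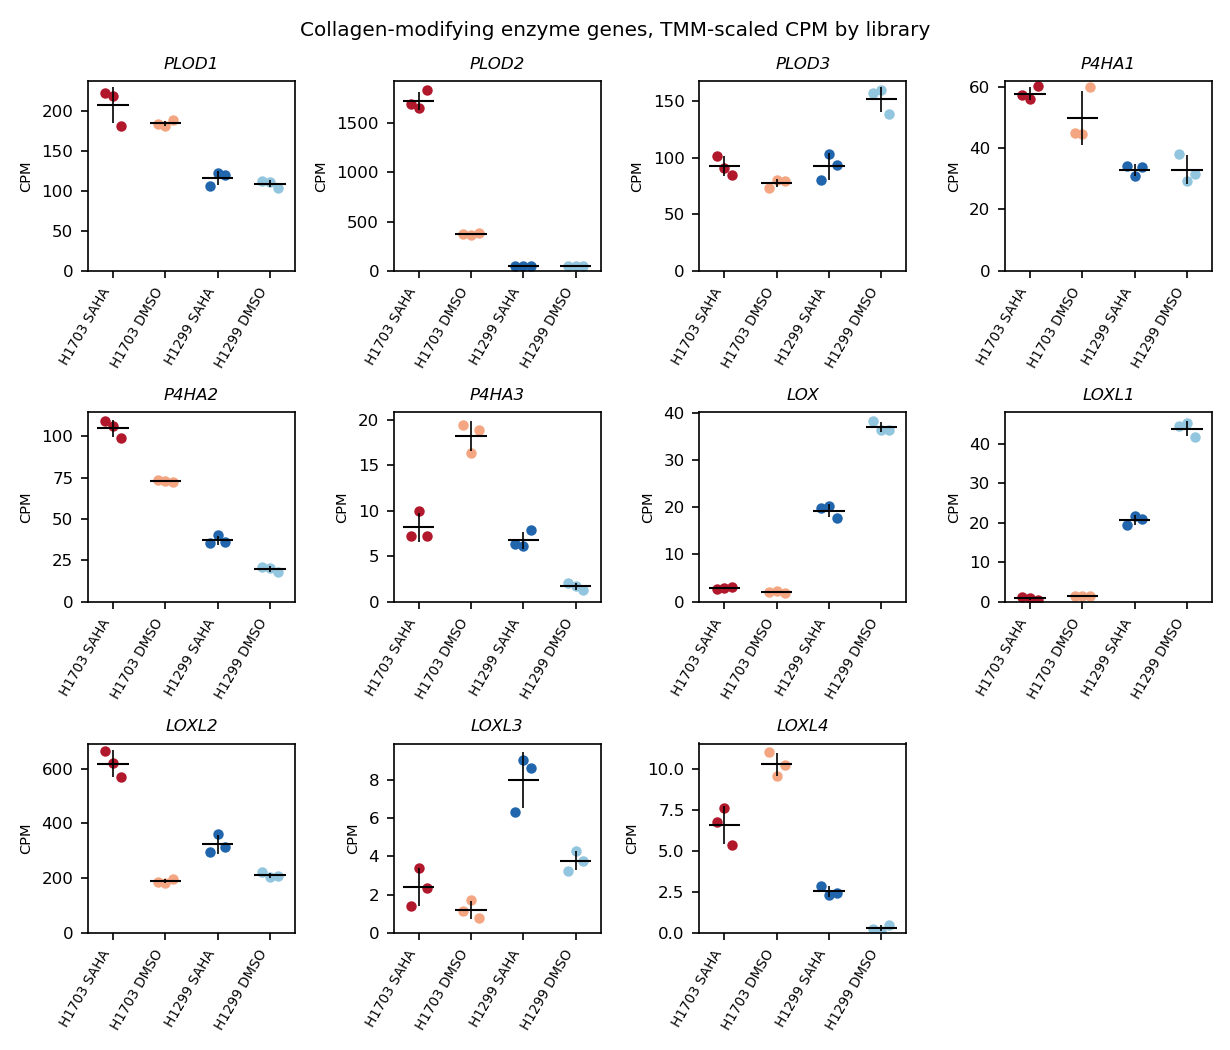
TMM-scaled CPM of the 11 collagen-modifying enzyme genes in each library (points; linear axes from 0), with group mean (horizontal bar) and SD (vertical bar). PLOD2 and LOXL2 are highest in H1703 with SAHA, LOX and LOXL1 are highest in H1299 with DMSO, and P4HA3 and LOXL4 are lower with SAHA in H1703 and higher with SAHA in H1299.

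COL4A3BP, the ceramide transfer protein gene caught by the naming rule, was called in neither line. It had 40.4 to 48.1 CPM with SAHA, against 36.2 to 42.1 CPM with DMSO, in H1703, and 24.5 to 31.5 CPM, against 29.2 to 31.5 CPM, in H1299.

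Genes that work with these collagens moved in both directions. Of 18 folding and secretion genes, all tested, 7 rose and 6 fell in H1703 and 5 rose and 4 fell in H1299. CREB3L1, a transcription factor that drives procollagen genes, rose by 3.06 ± 0.15 in H1703. SPARC, a collagen chaperone, rose by 1.56 ± 0.29 in H1299 and fell in H1703, at -2.23 ± 0.24. Of 8 procollagen processing genes tested, 4 rose and 3 fell in H1703 and 5 rose and 2 fell in H1299. The N-propeptidase gene ADAMTS2 had 478 counts over the H1703 SAHA libraries and 0 with DMSO, and TLL2, of the same list, rose by 2.99 ± 0.21 in H1299. Of 8 collagen receptor genes tested, 6 rose and none fell in H1703, with the integrin ITGA1 at 2.92 ± 0.12, and 4 rose and 1 fell in H1299, the integrin ITGA10 at -2.74 ± 0.33. Among collagen degradation genes, 6 of 10 tested rose and 2 fell in H1703, and 3 of 9 rose and 2 fell in H1299. The collagenase MMP13 rose by 5.94 ± 0.41 in H1703, and the membrane-bound MMP14 fell in H1299, at -1.50 ± 0.10. Of the fibril partners, 8 of 12 tested rose and 4 fell in H1703, with lumican (LUM) at 3.39 ± 0.13, and 4 of 10 rose and 2 fell in H1299. The thrombospondin THBS1 rose in H1299 by 2.28 ± 0.11 and fell in H1703, at -0.60 ± 0.09. Of 12 TGF-beta input genes, 3 rose and 4 fell in H1703 and 6 rose and 4 fell in H1299; CTGF, the connective tissue growth factor, rose by 4.89 ± 0.09 in H1703 and 3.64 ± 0.09 in H1299. Of the hypoxia-linked genes, 8 of 14 tested rose and 3 fell in H1703, and 7 of 13 rose and 3 fell in H1299, with NDRG1 at 2.44 ± 0.08 in H1703 and 4.42 ± 0.33 in H1299. Each count stands against the background of 34.7% higher and 32.6% lower in H1703 and 33.3% and 30.4% in H1299. A gene low in 1 group can pass the count filter only through its other group, so these counts describe the genes that passed. LAIR1 and ADAMTS2 had 0 counts with DMSO in both lines and could be called only upward. In H1703, FMOD had 57 counts with SAHA, against 1 with DMSO, and MMP13 had 327 against 5. ELN went the other way there, with 12 counts with SAHA, against 72 with DMSO.

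Markers of cell types that make collagen in tissue were also measured. The summed level of 9 fibroblast markers was 173 to 201 CPM with SAHA, against 110 to 123 CPM with DMSO, in H1703, and 40.2 to 42.8 CPM, against 36.2 to 42.0 CPM, in H1299, where LUM, FAP, POSTN and PDPN had no counts with DMSO. Of those tested, 4 of 6 rose and 1 fell in H1703, and 1 of 3 rose and 1 fell in H1299, with PDGFRB at 3.82 ± 0.27. FBLN1 was the 1 that fell in each line. Its means were 41.1 CPM with SAHA, against 65.3 with DMSO, in H1703, and 27.25 against 31.7 in H1299, where it made up most of the sums. LUM (51.3 against 4.99 CPM) and THY1 (75.3 against 28.7 CPM) were among those that rose in H1703. The background is again 34.7% higher and 32.6% lower in H1703 and 33.3% and 30.4% in H1299, here and for the lists that follow. The 5 chondrocyte markers summed to 70.5 to 81.9 CPM with SAHA, against 52.4 to 58.6 CPM with DMSO, in H1703, and 215 to 242 CPM, against 155 to 158 CPM, in H1299; 2 of 3 tested rose and 1 fell in H1703, led by ACAN at 5.58 ± 0.46, and all 3 tested rose in H1299, with SOX9 at 0.49 ± 0.08. SOX9 made up most of these sums, with means of 63.6 CPM with SAHA, against 43.95 with DMSO, in H1703, and 226 against 155 in H1299. ACAN passed the count filter through its SAHA libraries, with 6 counts with DMSO in H1703 and 0 in H1299. The 7 endothelial markers summed to 7.80 to 10.1 CPM with SAHA, against 0.959 to 1.58 CPM with DMSO, in H1703, and 16.6 to 22.0 CPM, against 1.90 to 2.37 CPM, in H1299; all 3 tested rose in H1703, with KDR at 3.14 ± 0.26, and both tested rose in H1299, with VWF at 5.32 ± 0.51. The other 4 in H1703 and 5 in H1299 had too few counts to test, and VWF passed the count filter through the SAHA libraries, with 215 counts in H1299 with SAHA, against 5 with DMSO. The 8 leukocyte markers summed to 84.5 to 93.2 CPM with SAHA, against 27.5 to 47.8 CPM with DMSO, in H1703, and 23.1 to 27.0 CPM, against 20.9 to 42.6 CPM, in H1299; 3 of 4 tested rose and none fell in H1703, and 1 of 2 rose and 1 fell in H1299. CSF1R rose by 4.82 ± 0.22 in H1703 and 5.48 ± 0.45 in H1299, and CD68, named after its values were seen, fell in H1299, at -0.88 ± 0.24. Of the epithelial markers, 3 of 8 rose and 3 fell in H1703, with KRT19 at 4.30 ± 0.12, and 3 of 5 rose in H1299, with KRT8 at 1.53 ± 0.08. Those that fell in H1703 were KRT7 (-1.81 ± 0.10), CDH1 (-1.51 ± 0.14) and MUC1 (-1.23 ± 0.16). ELF3 (0.73 ± 0.09) and KRT8 (0.34 ± 0.08) rose there beside KRT19. Markers of other lists also passed the count filter through their SAHA libraries, such as CSF1R, with 330 counts in H1299 with SAHA, against 7 with DMSO. The part of these markers in the collagen results was not tested.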

How the data were processed

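Polyadenylated RNA of 12 libraries was sequenced, per the labels. The authors deposited 1 table per line, with a raw count and an FPKM column for each library; the counts are whole numbers, not normalized, and the FPKM values were used as deposited, for levels between genes, sums over gene classes in each group and chain ratios, without a test. Control columns carry a shorthand and were taken as DMSO, the only other group of each line. Build GRCh38 and the tools HISAT2 2.1.0, StringTie 1.3.3b, edgeR 3.30.3, fastp and FastQC 0.11.9 come from the submitters' processing notes, which give no roles. Whether counting used strand is not given here. The series text states a median read depth well above the count totals of 14.4M to 19.4M, which limit precision for low genes.

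Tests used edgeR 4.0.16 (R 4.3.3). Genes passed filterByExpr at a minimum count of 10 and total of 15, libraries were TMM-scaled, and robust quasi-likelihood p-values were adjusted by Benjamini-Hochberg across every gene that passed, with calls at 0.05. Each line was fitted alone for SAHA against DMSO; the difference between lines (H1703 minus H1299) and the DMSO comparison came from 1 fit over 12 libraries. The SE is the log2 fold change divided by the root of F. CPM levels use TMM scaling over all libraries. A group with 0 counts was set at a floor of 3 counts over the group; with 1 to 3 counts the ratio has an exact counting interval (95%), which covers counting error only. Replicate libraries differed by more than sampling noise (their chi-square divided by its degrees of freedom was 10.9 to 24.7). The scripts were tested on simulated data.

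Alternatives were RLE scaling, library totals alone, 2 other filters, DESeq2 1.42.0, other sets of libraries in the fit, leaving out each library and the replicate number as a block. The labels call that number a batch, so it pairs the libraries by label; deviations of same-numbered libraries from their group means hardly correlated (r from -0.0308 to 0.0337). Values in every library are given for the 4 called members with the largest change each way per comparison (where mean log2 CPM was at least 1) and for 20 fixed members; other genes came from lists, with the called gene of largest change among those at or above the same mean level as example, so that low genes with larger fitted changes are not the example. The members and lists were chosen with earlier results of these data known. Promoter sequences come from RefSeq (GRCh38.p14), where 41 members had a window.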

Additional observations from a re-analysis of the deposited data

Results flagged for a closer look

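The SAHA effect differed between the lines, by the interaction in edgeR's quasi-likelihood test over the 12 libraries, for 24 of the 47 members tested; 34.9% of all genes tested were called in this way. The values are differences of log2 fold changes, H1703 minus H1299.

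The effect was higher in H1703 for 7 genes: PLOD2 (2.21), LOX (1.46), COL17A1 (1.40), LOXL2 (1.10), PLOD3 (0.97), COL7A1 (0.89) and COL13A1 (0.84). LOXL2 rose in both lines, so its difference is one of size, and COL7A1 lost its call under 10 of 18 alternatives.

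The effect was lower in H1703 for 17 genes. For 12 of them the values were COL1A1 (-4.79), COL5A2 (-3.15), COL11A1 (-2.44), COL4A2 (-4.12), COL4A6 (-2.13), COL12A1 (-0.78), COL16A1 (-2.19), COL21A1 (-3.46), COL26A1 (-4.22), LOXL4 (-3.81), P4HA2 (-0.39) and P4HA3 (-3.17). P4HA2 rose in both lines and lost this call under 4 of 18 alternatives. The value was -4.42 for COL21A1 without H1299 DMSO replicate 1 and -4.39 for LOXL4 without H1299 DMSO replicate 3. COL4A2 and COL26A1 each had 4 counts over the H1299 DMSO libraries, so their values give no precise size. COL4A2 had too few counts to be tested in H1299 alone.

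For the other 5 genes H1299 with DMSO had 2 counts or fewer over its 3 libraries, and the fitted differences depend on the prior count and give no size: COL6A3 (-7.70), COL15A1 (-6.42), COL4A1 (-5.90), COL5A1 (-4.55) and COL5A3 (-3.60). COL5A3 lost its call without H1299 DMSO replicate 2 or 3 (largest adjusted p over its alternatives 0.0541).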

How the results depend on the processing

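None of the counts of calls, over all genes or over the members, moved by more than 1.5 times under any alternative. Genes called ranged from 11004 to 12866 in H1703, 10346 to 12296 in H1299, 5934 to 6881 for the difference between lines and 12023 to 13154 for the lines under DMSO. Members called higher ranged from 20 to 26, 21 to 29, 6 to 9 and 26 to 30, and lower from 7 to 9, 5 to 6, 15 to 19 and 9 to 11. With library totals alone, the median of all genes shifted to -0.19 for the difference between lines and -0.17 for the lines under DMSO. The split of higher against lower calls was then 2089 to 4756 (2623 to 4049 with TMM) and 5457 to 7408 (6561 to 6151 with TMM).

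With the replicate block, the members called higher numbered 22 in H1703 and 24 in H1299, and those called lower 7 and 5; LOX in H1703 lost its call (adjusted p = 0.0898), and no other call of a member changed. Single libraries decided some calls. In H1703, LOX lost its call without any one of the 6 libraries, COL11A2 without DMSO 2 or 3 or SAHA 1 or 2, LOXL3 without DMSO 1 or 3 or SAHA 2 or 3, and PLOD3 without DMSO 1 or 3 or SAHA 1. The higher level of COL6A1 in H1703 under DMSO was lost without DMSO 2 or 3 of either line. Calls on the SAHA effect were also gained. Without H1703 SAHA 3, COL18A1, PLOD1 and COL6A1 were called higher with SAHA in H1703 (edgeR adjusted p = 0.0038, 0.0039 and 0.0066). P4HA1 was called higher there without DMSO 3 (edgeR adjusted p = 0.0089), and COL26A1 without SAHA 2 or 3. For the difference between lines, P4HA2 lost its call without H1299 DMSO 3 or SAHA 2, and COL7A1 without H1299 DMSO 2 or 3, H1299 SAHA 1 or 3, H1703 DMSO 1 or 2, or H1703 SAHA 1 or 2.

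Log2 values that changed sign all belong to genes that were not called, and the cause was not tested. In H1703, library totals alone gave -0.062 for COL4A5 and -0.056 for COL1A1. In H1299, COL6A1 was 0.011 with RLE scaling, 0.067 with library totals, 0.0098 with DESeq2 and 0.050 in 1 fit over 12 libraries; P4HA1 was 0.021 with library totals and 0.0053 in that fit, and PLOD2 0.020 and 0.0027. For the difference between lines, COL4A3 was 0.068 with RLE scaling, 0.0016 without a filter and 0.062 with DESeq2, and library totals gave -0.013 for COL9A2 and -0.022 for PLOD1.

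Leaving out 1 library at a time, values in H1703 ranged from -0.53 to 0.28 for COL11A1, -0.20 to 0.13 for COL15A1, -0.023 to 0.11 for COL1A1, -0.061 to 0.14 for COL4A5 and -0.11 to 0.43 for COL17A1. In H1299 they ranged from -0.15 to 0.046 for P4HA1, -0.10 to 0.039 for COL6A1, -0.016 to 0.11 for PLOD1 and -0.11 to 0.55 for COL11A2. For the difference between lines the range was -0.29 to 0.64 for COL9A2, -0.69 to 0.39 for COL4A3, -0.46 to 0.21 for LOXL3 and -0.011 to 0.54 for LOXL1. COL3A1 between the lines under DMSO ranged from -0.15 to 1.23.

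A gene with few counts in every group could not be tested, and its change was not detectable at this depth.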
